A study of Homo sapiens with 4 samples.

Results

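The extracellular signal-regulated kinase (ERK) pathway switches on a small set of genes that report its activity, and 10 of them were followed here in laryngeal squamous cell carcinoma (LSCC) cells with and without knockdown of SKA3, a subunit of the spindle and kinetochore complex. The 10 genes were chosen by name: the dual-specificity phosphatases DUSP4, DUSP5 and DUSP6, the Sprouty and SPRED inhibitors SPRY2, SPRY4, SPRED1 and SPRED2, the ETS transcription factors ETV4 and ETV5, and PHLDA1. The choice was made with earlier results of these data known. Each had 1 row among the 28729 genes of the deposited table. The data were 4 RNA-seq libraries of TU-177, an LSCC cell line. In 2 of them (NC 1 and NC 2) the cells carried a lentiviral negative control shRNA, and in the other 2 (SKA3-KD 1 and SKA3-KD 2) an shRNA against SKA3. The construct is given here as the labels name it, and the study's methods also describe siRNAs and, for stable lines, guide RNAs with Cas9 against SKA3. All 4 cultures were grown in DMEM with fetal bovine serum and selected with puromycin after transduction, so the controls carried a lentivirus and the drug treatment too. The labels do not name the shRNA sequence or say whether more than 1 was used, nor whether the 2 libraries of a group came from separate transductions, so the p-values below measure only the spread between these libraries. In bulk RNA, a shift in which cells make up a culture and a change in RNA per cell cannot be told apart.

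Growth factor receptors act through RAS, RAF and MEK to phosphorylate ERK, and active ERK then raises transcription of its own brakes. DUSP proteins remove phosphate from ERK and related kinases, Sprouty proteins dampen signalling between receptor and RAS, and SPRED proteins bring the RAS-inactivating protein neurofibromin to the membrane. ETV4 and ETV5, ETS factors of the PEA3 group, drive further target genes, and several of these genes are held down by the repressor CIC until ERK signalling relieves it. For this reason such genes are widely read as a measure of pathway output in carcinoma cells, where receptors of the EGFR family often feed the pathway.

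SKA3, the targeted gene, was read first as a check of the labels. It stood at 9.40 and 9.64 FPKM (fragments scaled by transcript length and library size) in NC 1 and NC 2 and at 3.77 and 4.12 FPKM in SKA3-KD 1 and SKA3-KD 2. The log2 fold change on the log2(FPKM + 1) scale was -1.09 (SE 0.07, limma adjusted p = 0.00806), so the libraries matched their labels. The library sizes behind the FPKM values, estimated from the steps of those values, lay between 9015056 and 11966130 reads. Of the squamous epithelial markers, SFN (133 to 155 FPKM) and EPCAM (2.73 to 2.95 FPKM) were expressed. KRT17 was expressed and fell, from 45.6 and 49.1 FPKM in NC to 29.4 and 35.7 FPKM in SKA3-KD (-0.53, limma adjusted p = 0.0396). In contrast, KRT5, KRT14 and KRT6A were listed at 0 to 0.103 FPKM and TP63 at 0.348 to 0.580 FPKM. CDH1 was scarce too, at 0.149 and 0.288 FPKM in NC and 0.447 and 0.344 FPKM in SKA3-KD. It did not pass in limma voom on recovered reads, described below (0.92, adjusted p = 0.0927). The 8 markers summed to 193 and 208 FPKM in NC and to 167 and 189 FPKM in SKA3-KD. The 5 fibroblast markers summed to 14.6 and 15.02 FPKM in NC and to 8.39 and 9.20 FPKM in SKA3-KD. DCN fell from 8.40 and 8.36 FPKM in NC to 2.48 and 2.35 FPKM in SKA3-KD (-1.46, limma adjusted p = 0.00650). The other expressed members went both ways and did not pass in limma, with COL1A1 at 3.60 and 2.69 FPKM (-0.32, adjusted p = 0.140) and PDGFRB at 2.67 and 3.66 FPKM (0.34, adjusted p = 0.165) as means of NC and SKA3-KD. In limma voom on recovered reads (described below) COL1A1 was lower (-0.41, adjusted p = 0.0123) and PDGFRB higher (0.43, adjusted p = 0.0246), while COL1A2 and LUM were at or below 0.221 FPKM in every library. Leukocyte markers summed to at most 0.365 FPKM and endothelial markers to at most 0.0968 FPKM in any library. The part of KRT17, DCN and the other markers in the results below was not tested.

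Promoter sequence from RefSeq (GRCh38.p14) was read for 6 of the 10 genes, as 9 windows of 300 bases. Each window ran from 250 bases before a transcription start. Promoters of the other genes were left out of this search, so the counts over the 9 windows do not cover them. In all, 3 stretches are shown because they carry letters bound by the factors named above. Both strands were searched for the CIC octamers TGAATGAA, TGAATGGA, TCAATGAA and TCAATGGA and for the ETS core CCGGAA. Each stretch reads 5′ to 3′ on the strand of its gene with the match in capitals, which is the reverse complement of the searched letters in DUSP6 and PHLDA1.
DUSP6, chr12:89352487-89352570, minus strand: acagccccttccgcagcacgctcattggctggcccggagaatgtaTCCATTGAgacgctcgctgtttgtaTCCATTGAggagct
SPRY2, chr13:80341218-80341313, minus strand: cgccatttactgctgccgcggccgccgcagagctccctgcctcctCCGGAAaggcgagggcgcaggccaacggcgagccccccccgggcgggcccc
PHLDA1, chr12:76031815-76031910, minus strand: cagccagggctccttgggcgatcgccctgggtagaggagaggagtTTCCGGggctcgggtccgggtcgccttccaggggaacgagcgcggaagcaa
The DUSP6 window held the CIC octamer at 2 places, from -24 to -17 and from 1 to 8 counted from the start base as 0. At least 1 CIC octamer was found in 3.77% of all 35116 promoter windows and 2 or more in 0.327%. The ETS core lay at -142 to -137 in SPRY2 and at -89 to -84 in PHLDA1, and 17.2% of all windows held it. Counted over the 9 windows, 1 held a CIC octamer and 2 held the ETS core. The AP-1 letters TGANTCA were in 1 of the 9, a window of SPRED2, against 7.71% of all windows, and the CRE letters TGACGTCA in 0 of the 9, against 1.85%. These matches describe the letters of the windows and were not tested for binding.

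All 10 genes were higher in both SKA3-KD libraries than in both NC libraries, an order also shown by 31.9% of the 13921 genes that averaged at least 10 reads. A mean of 1 FPKM was reached by 7 of the genes, which entered the limma fit, and 4 of these 7 rose past an adjusted p of 0.05: DUSP4, SPRY2, SPRED2 and ETV4. Over all 12645 genes tested, 6.16% were called higher and 6.11% lower. As the 10 were chosen with earlier results of these data known, shares and medians over all genes are a background and no test of the list. None of the 7 fell, since all 7 log2 fold changes were positive (limma), and 5 had an unadjusted p under 0.05. No share over all genes was computed for this or any later count at an unadjusted p. Because DUSP6, SPRY4 and ETV5 lay under that FPKM minimum, the whole reads behind the FPKM values were recovered and fitted with limma voom, an alternative chosen after the data had been seen. In that fit 9 of the 10 genes rose and DUSP5 did not pass, against 12.1% of 13921 genes called higher and 12.9% called lower. The median log2 fold change of the 7 tested genes was 0.60, against 0.01 for all genes tested, whose 5th and 95th percentiles were -0.53 and 0.47. In the fit on reads the median of the 10 was 0.96 against -0.00 for all genes. Leaving out any 1 library lowered the limma count to 0, or to 1 (ETV4) without SKA3-KD 2, while the number of all genes called higher fell from 779 to between 0 and 46. In the fit on reads all 10 log2 fold changes stayed positive with any 1 library left out, which leaves 1 library in a group. SPRED1 and PHLDA1 in the first fit, and SPRY4 in the fit on reads, passed the minimum only through their SKA3-KD libraries.

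**Figure D1:**
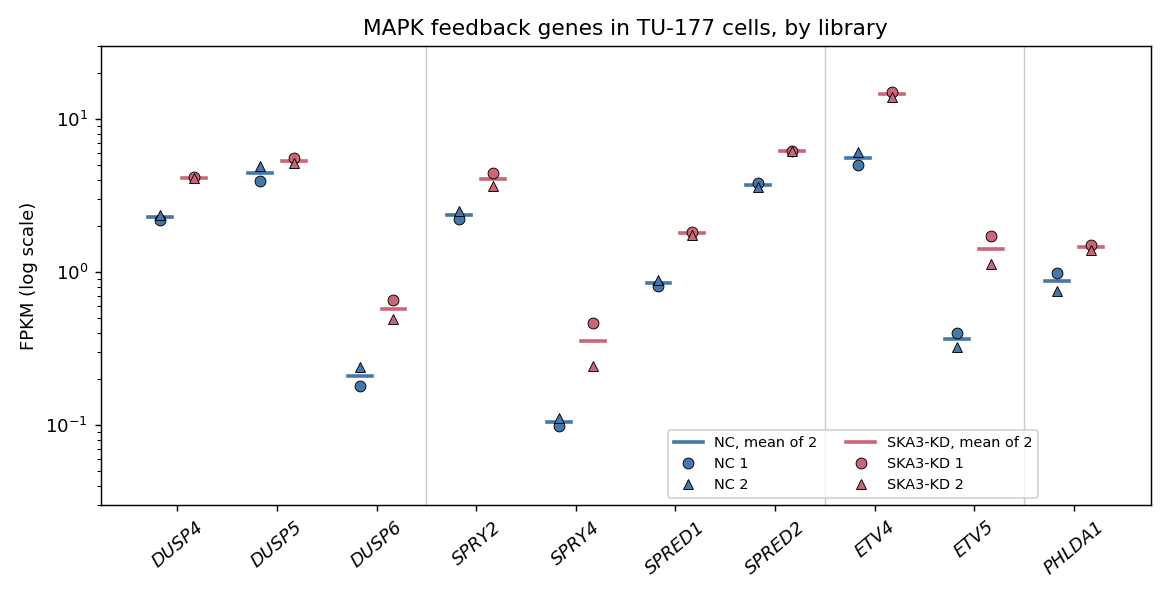
FPKM of the 10 feedback genes (log axis) in each of the 4 libraries, with NC and SKA3-KD libraries as separate symbols. For every gene both SKA3-KD points lie above both NC points, from SPRY4 at 0.0986 to 0.464 FPKM to ETV4 at 5.00 to 15.1 FPKM.

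DUSP4 is a nuclear phosphatase that acts on ERK, JNK and p38. It was measured at 2.199 and 2.37 FPKM in NC 1 and NC 2 and at 4.20 and 4.09 FPKM in SKA3-KD 1 and SKA3-KD 2. The gap between the groups was far wider than the gap within either one, with means of 2.28 ± 0.12 (SD, n = 2) and 4.14 ± 0.0761 FPKM. DUSP4 rose by a log2 fold change of 0.65 on the log2(FPKM + 1) scale (SE 0.09, limma adjusted p = 0.0205). Its reads numbered 191 and 155 in NC against 310 and 350 in SKA3-KD, and limma voom on reads gave 0.85 (SE 0.12, adjusted p = 2.33e-05). The gene lies on chromosome 8, and no exon of another gene overlaps it in GENCODE 29.

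DUSP5, a nuclear phosphatase that acts on ERK alone, was the gene of the 10 with the smallest change. Its values were 3.93 and 4.96 FPKM in NC and 5.52 and 5.12 FPKM in SKA3-KD. NC 2 came close to SKA3-KD 2, and the difference of 0.27 between NC 1 and NC 2 on the log2(FPKM + 1) scale was larger than the difference of 0.22 between the groups. DUSP5 passed neither limma on log2(FPKM + 1) (SE 0.12, adjusted p = 0.262) nor limma voom on reads (0.27, SE 0.16, adjusted p = 0.228). Its reads numbered 117 to 158 per library.

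DUSP6 is the cytoplasmic counterpart of DUSP5 and the phosphatase most often read as an ERK output, and its promoter is the one shown above with 2 CIC octamers. It was scarce, at 0.180 and 0.239 FPKM in NC and 0.658 and 0.494 FPKM in SKA3-KD. These values stood for 10 reads in each NC library and for 31 and 27 reads in SKA3-KD 1 and SKA3-KD 2. The summed reads were 20 (exact Poisson 95% interval 12.2 to 30.9) in NC and 58 (44.0 to 75.0) in SKA3-KD, intervals that cover counting error only and do not meet. In limma voom on reads DUSP6 rose by 1.40 on the log2 scale (SE 0.40, adjusted p = 0.0120), and without NC 1 it did not pass (1.17, adjusted p = 0.148). Over all genes above 0, without an FPKM minimum, its difference of 0.38 on the log2(FPKM + 1) scale did not pass (limma adjusted p = 0.196). An antisense gene covers 40.5% of the exon bases of DUSP6, and as no source states whether the counting used strand, reads of the 2 cannot be told apart.

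SPRY2, whose promoter stretch with the ETS core is shown above, is a membrane-bound adaptor that interrupts receptor signalling to RAS. It was measured at 2.24 and 2.496 FPKM in NC and at 4.45 and 3.66 FPKM in SKA3-KD. The SKA3-KD libraries differed more from each other (SD 0.559 FPKM) than the NC libraries (SD 0.184 FPKM), yet the lower of them stood well above both. SPRY2 rose by 0.58 on the log2(FPKM + 1) scale (SE 0.12, limma adjusted p = 0.0403). This call was the closest to the threshold among the 4. With limma voom on reads, 88 and 74 in NC against 149 and 142 in SKA3-KD, the change was 0.76 (SE 0.18, adjusted p = 0.00287).

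SPRY4, a relative of SPRY2 with a similar role, was the scarcest of the 10 in both groups. It stood at 0.0986 and 0.112 FPKM in NC and at 0.464 and 0.243 FPKM in SKA3-KD. That was 7 and 6 reads in NC against 28 and 17 reads in SKA3-KD, so SKA3-KD 1 carried most of the rise. The intervals of the sums, 13 reads (exact Poisson 95% interval 6.92 to 22.2) and 45 reads (32.8 to 60.2), did not meet but cover counting error only. Averaged over genes with more than a few reads, libraries of a group differed by more than counting error. The chi-square per degree of freedom was 3.38 in NC and 3.38 in SKA3-KD, where counting error alone gives about 1. With 13 reads SPRY4 had too few in NC to enter that average. The average covers genes of all levels and does not measure the spread of SPRY4 itself. Limma voom on reads gave a log2 fold change of 1.57 (SE 0.48, adjusted p = 0.0196). SPRY4 entered that fit only through its SKA3-KD libraries, since both NC libraries lay under the minimum of 10 reads. The call at an adjusted p of 0.0196 is therefore no independent support for the rise. It also did not hold without NC 1 (log2 fold change 1.45) or without SKA3-KD 1 (log2 fold change 1.14).

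SPRED1 and SPRED2 both recruit neurofibromin to RAS. SPRED1 was measured at 0.809 and 0.886 FPKM in NC and at 1.83 and 1.76 FPKM in SKA3-KD. Replicates lay close together in each group, with means of 0.848 ± 0.0544 and 1.79 ± 0.0541 FPKM (SD, n = 2). SPRED1 missed the threshold in limma on log2(FPKM + 1) (0.60, SE 0.14, adjusted p = 0.0565) and rose in limma voom on reads (1.07, SE 0.17, adjusted p = 8.12e-05). The pseudocount of 1 exceeds its NC level, which makes the first fold change the smaller of the 2.

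SPRED2 was the more abundant of the pair at 3.83 and 3.62 FPKM in NC and 6.18 and 6.22 FPKM in SKA3-KD. Its SKA3-KD libraries lay closer together than those of any other of the 10 genes (SD 0.0298 FPKM). SPRED2 rose by 0.61 on the log2(FPKM + 1) scale (SE 0.07, limma adjusted p = 0.0165). On reads, 236 and 168 in NC against 324 and 378 in SKA3-KD, limma voom gave 0.72 (SE 0.11, adjusted p = 8.90e-05). SPRED2 was also the exception among the 10 in being higher in SKA3-KD 2 than in SKA3-KD 1.

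ETV4 showed the clearest change. It rose from 5.00 and 6.06 FPKM in NC 1 and NC 2 to 15.1 and 14.0 FPKM in SKA3-KD 1 and SKA3-KD 2. The group means of 5.53 ± 0.745 and 14.5 ± 0.745 FPKM (SD, n = 2) differed 2.63-fold. The log2 fold change was 1.25 on the log2(FPKM + 1) scale (SE 0.10, limma adjusted p = 0.00891), the 33rd highest of 12645 genes. Reads rose from 216 and 197 to 553 and 596, with a log2 fold change of 1.40 in limma voom (SE 0.12, adjusted p = 2.08e-08). ETV4 shares 68 exon bases with DHX8 on the opposite strand, and DHX8 stood at 9.78 and 9.77 FPKM in NC and 9.02 and 9.86 FPKM in SKA3-KD.

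ETV5, the PEA3 relative of ETV4, started from a much lower level of 0.403 and 0.325 FPKM in NC and reached 1.71 and 1.13 FPKM in SKA3-KD. Reads rose from 28 and 17 to 101 and 77. The ratio of the mean FPKM values, 3.89, was the highest of the 10 genes, although the SKA3-KD libraries were apart from each other (SD 0.414 FPKM). In limma voom on reads ETV5 had a log2 fold change of 1.86 (SE 0.31, adjusted p = 0.000113), the 9th highest of 13921 genes. The change was between 1.58 and 2.18 when any 1 library was left out, and it passed each time. Its mean of 0.891 FPKM kept it out of the first fit. Without an FPKM minimum its difference of 0.82 on the log2(FPKM + 1) scale ranked 203rd of 26504 genes and did not pass (limma adjusted p = 0.131). ETV5 shares 164 exon bases, 2.83% of its own, with DGKG on the same strand, so reads from these bases cannot be assigned by strand.

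PHLDA1 encodes a pleckstrin homology-like protein and is a common member of ERK activity signatures, and its promoter stretch with the ETS core is shown above. It was measured at 0.984 and 0.756 FPKM in NC and at 1.51 and 1.40 FPKM in SKA3-KD. In reads this was 95 and 55 against 124 and 133, so the NC libraries differed more from each other than the SKA3-KD libraries did. PHLDA1 did not pass in limma on log2(FPKM + 1) (0.39, SE 0.16, adjusted p = 0.168) and rose in limma voom on reads (0.70, SE 0.18, adjusted p = 0.00683). Without NC 2 the call on reads was lost (0.55, adjusted p = 0.0654). A pair of antisense genes covers 6.85% and 9.65% of its exon bases.

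**Figure D2:**
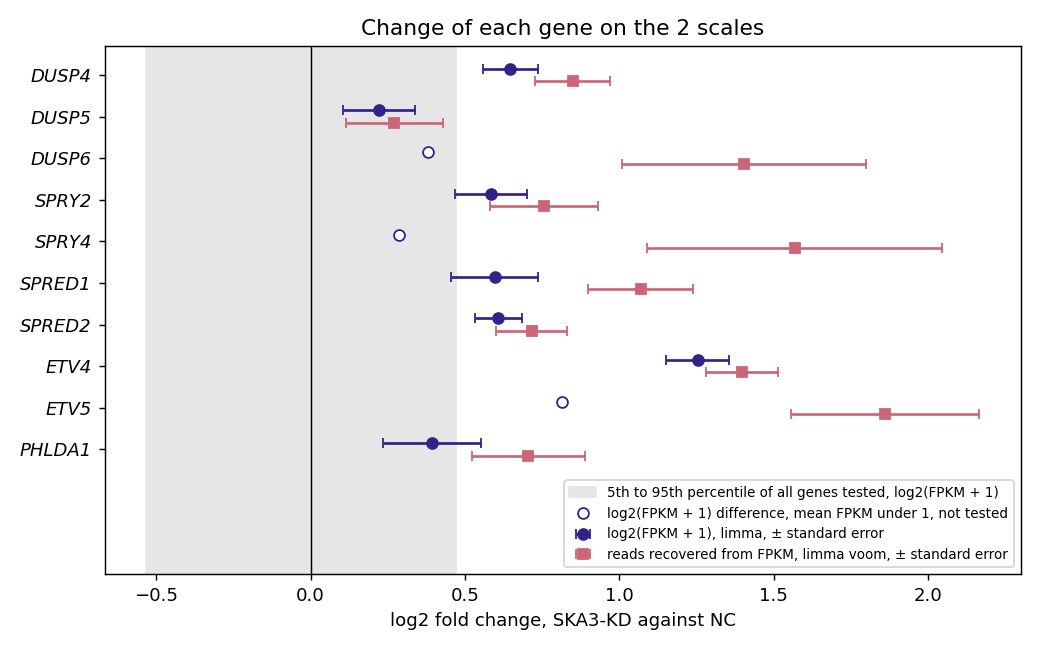
Log2 fold change of each feedback gene, SKA3-KD against NC, on log2(FPKM + 1) and from limma voom on recovered reads. Bars give the SE, from limma for the 7 genes tested on log2(FPKM + 1) and from limma voom for all 10. Open points show the log2(FPKM + 1) difference of DUSP6, SPRY4 and ETV5, which were under the FPKM minimum and not tested there. All estimates lie above 0, from 0.22 for DUSP5 to 1.86 for ETV5, and the fit on reads gives the larger value for each gene it shares with the first fit.

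Viewed across the 10 genes, both SKA3-KD libraries moved in the same direction. The median over the 10 of the difference from the NC mean on the log2(FPKM + 1) scale reached 0.61 for SKA3-KD 1 and 0.52 for SKA3-KD 2. It was -0.03 and 0.03 for NC 1 and NC 2, which are equal and opposite because each was measured from their own mean. Their summed level was 19.7 and 21.8 FPKM in NC and 41.6 and 38.1 FPKM in SKA3-KD. ETV4 made up 25.4% and 27.8% of that sum in NC and 36.2% and 36.8% in SKA3-KD. Levels per length ranked ETV4 first in both groups. In NC it was followed by DUSP5, SPRED2, SPRY2 with DUSP4, PHLDA1 with SPRED1, ETV5, DUSP6 and SPRY4, where the genes joined by "with" overlapped between libraries. In SKA3-KD the order was ETV4, SPRED2, DUSP5, DUSP4 with SPRY2, SPRED1, PHLDA1 with ETV5, DUSP6 and SPRY4, so SPRED2 stood above DUSP5 and ETV5 no longer stood below PHLDA1.

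The relatives of the 10 genes did not share one direction. As a background for the counts below, limma called 6.16% of all 12645 genes higher and 6.11% lower. In the fit on reads these shares were 12.1% and 12.9%. Of 7 other MAP kinase phosphatases tested, 2 fell, DUSP9 from 9.64 ± 1.17 to 5.70 ± 0.659 FPKM (log2 fold change -0.67, limma adjusted p = 0.0302) and DUSP7 from 4.44 ± 0.334 to 3.11 ± 0.0872 FPKM (-0.40, adjusted p = 0.0499). None rose (limma, 0 at an unadjusted p under 0.05, and 0 in the fit on reads), and the median of the 7 was -0.00. The other Sprouty and SPRED genes, SPRY1, SPRY3 and SPRED3, had means under 1 FPKM. SPRY1, the most abundant of them, stood at 0.655 and 0.981 FPKM in NC and 0.422 and 0.814 FPKM in SKA3-KD (limma voom log2 fold change -0.39, adjusted p = 0.448). In the fit on reads SPRY3 fell, at 0.232 and 0.221 FPKM in NC and 0.0980 and 0.0846 FPKM in SKA3-KD (limma voom log2 fold change -1.29, adjusted p = 0.0247). Of 10 other ETS factors and CIC, ELK4 (8.35 to 5.34 FPKM, -0.56, limma adjusted p = 0.0213) and ETS2 (20.03 to 14.9 FPKM, -0.40, adjusted p = 0.0413) fell. None of that list rose in limma, with 4 higher at an unadjusted p under 0.05 and 3 higher in the fit on reads, and its median was 0.18. CIC itself, the repressor, stood at 10.4 ± 1.63 FPKM in NC and 11.6 ± 0.787 FPKM in SKA3-KD (0.14, limma adjusted p = 0.454). PHLDA2 rose from 32.4 ± 1.996 to 44.9 ± 0.628 FPKM (0.46, limma adjusted p = 0.0220), whereas PHLDA3 differed by 0.01 (adjusted p = 0.929).

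Among the components that lie upstream of ERK, 3 of 8 receptors passed the threshold. Over all 12645 genes tested, limma called 6.16% higher and 6.11% lower. EGFR, the receptor for epidermal growth factor, stood at 42.8 and 44.7 FPKM in NC and at 64.1 and 71.2 FPKM in SKA3-KD (0.62, limma adjusted p = 0.0152). FGFR1, a fibroblast growth factor receptor, rose from 3.25 to 5.40 FPKM (0.59, limma adjusted p = 0.0202), and MET, the receptor for hepatocyte growth factor, from 28.0 to 36.9 FPKM (0.39, adjusted p = 0.0393). These were 3 of 8 receptors tested, with a list median of 0.25, and none fell (limma, 0 at an unadjusted p under 0.05, and 0 in the fit on reads). The core cascade between receptor and ERK was read from 18 adaptors, RAS, RAF, MEK and ERK genes and RAS inactivators, a list that leaves out some genes of the cascade. None of these 18 rose in limma (3 higher at an unadjusted p under 0.05), and their median was 0.07. In the fit on reads 2 of 19 were higher, a share of 10.5% beside 12.1% of all genes. RPS6KA3, a kinase that ERK phosphorylates, fell from 21.7 ± 1.35 to 9.39 ± 0.0426 FPKM (-1.12, limma adjusted p = 0.00709) and was the 1 of 6 substrate kinases that passed. The median of those 6 was 0.03.

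Of 9 other ERK output genes tested, 3 rose and none fell (limma, 0 lower at an unadjusted p under 0.05, and 0 lower in the fit on reads), and their median was 0.34. The background in limma was 6.16% of all 12645 genes called higher and 6.11% called lower. FOSL1, a FOS-family partner in the AP-1 transcription factor, rose from 5.55 ± 0.211 to 12.6 ± 1.65 FPKM (1.05, limma adjusted p = 0.0115). CCND1, which encodes cyclin D1, rose from 18.5 ± 0.482 to 29.9 ± 2.05 FPKM (0.66, limma adjusted p = 0.0136). EPHA2, an ephrin receptor, rose from 37.6 ± 5.30 to 60.4 ± 4.11 FPKM (0.67, limma adjusted p = 0.0281). The immediate early genes EGR1 and FOS did not pass, with log2 fold changes of 0.12 (limma adjusted p = 0.678) and -0.16 (adjusted p = 0.342).

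**Figure D3:**
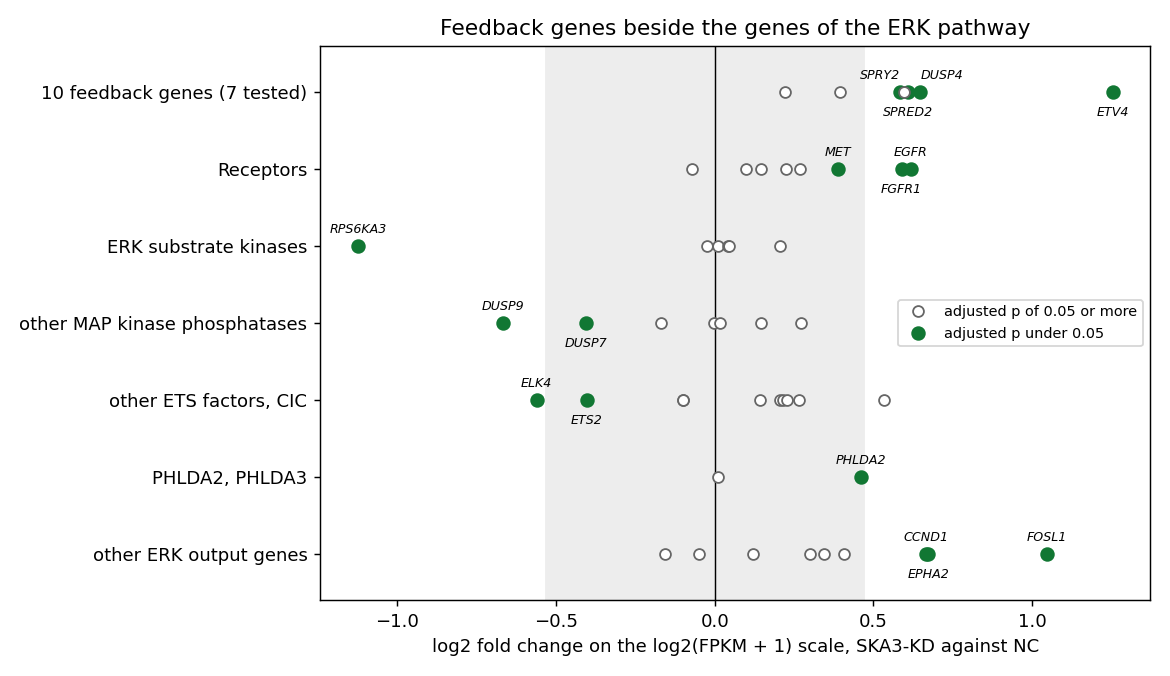
Log2 fold change on the log2(FPKM + 1) scale (limma, SKA3-KD against NC) of the feedback genes and of other genes of the ERK pathway, 1 row per list, with filled points for an adjusted p under 0.05 and the grey band for the 5th to 95th percentile of all genes tested (-0.53 to 0.47). The 7 tested feedback genes all lie right of 0 with ETV4 at 1.25, as FOSL1 does at 1.05, whereas RPS6KA3 lies at -1.12.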

How the data were processed

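RNA of 4 TU-177 cultures (2 NC, 2 SKA3-KD, grouped by their labels) was sequenced by Illumina. The deposited table gives FPKM, which the authors scaled by transcript length and library size. The submitters' processing notes list Bowtie2 2.2.8, HISAT2, StringTie 1.3.1, Cuffdiff 2.1.1 and build hg19, with no role for each. The annotation and strand setting are not given in the sources used here. Symbols, lengths and overlaps came from GENCODE 29 (GRCh38), so no gene coordinates are printed beyond the RefSeq stretches.

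The FPKM values were tested with limma 3.58.1 (R 4.3.3) as log2(FPKM + 1), with the variance following the mean level, on 12645 genes averaging 1 FPKM or more, with Benjamini-Hochberg adjustment and a threshold of 0.05. A fold change on this scale understates that of low genes. Whole reads were recovered from the FPKM steps (tolerance 0.02 reads) for 97.6% of the 26504 genes above 0 and for all 10 feedback genes, from the GENCODE length or, for SPRY2 and SPRY4, from the steps alone. The recovered reads summed to between 102.1% (NC 2) and 103.7% (SKA3-KD 1) of the estimated library sizes, so the 2 do not match exactly. These reads were fitted with limma voom over 13921 genes averaging 10 reads or more. The scripts were tested on simulated data. An exact permutation test of 2 against 2 cannot go below p = 0.333. All feedback genes and SKA3 are named, and of each related list the genes past the threshold or, where none passed, the most abundant, with CIC, PHLDA3, EGR1, FOS and SPRY3 added after their values were seen. The members and lists were chosen with earlier results of these data known. Some genes of the core cascade list are not reported here, and its counts cover the rest.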

Additional observations from a re-analysis of the deposited data

How the results depend on the processing

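Every feedback gene had a positive log2 fold change under each alternative in which it was tested. The count of feedback genes called higher, 4 of 7, was 0 of 10 with no filter on low FPKM (limma, 7 at an unadjusted p under 0.05), 1 with a mean FPKM of at least 5, where ETV4 alone was tested, 9 of 10 in the fit on reads (7 to 9 with 1 library left out), and 0 to 1 in the fit on FPKM with 1 library left out. Of all genes, 779 were higher and 772 lower in the main analysis. These counts were 48 and 81 with no filter, 312 and 381 with no trend, 1597 and 1655 with limma voom on the reads of genes averaging 1 FPKM or more, and 1689 and 1789 on those averaging 10 reads or more. They were 1442 and 1356 at an adjusted p under 0.1, 198 and 329 with a fold of at least 1.5, and 0 to 46 and 0 to 135 with 1 library left out. The fit on reads called 1095 to 1571 genes higher with 1 library left out. The median log2 fold change of the 10 feedback genes, 0.59, was 0.92 with a pseudocount of 0.1, 0.96 in the fit on reads and 0.52 to 0.61 with 1 library left out. SKA3 ranged from -1.14 to -1.04 with 1 library left out and did not pass without NC 1 or without NC 2 (limma adjusted p = 0.0660 and 0.0600). The cause of these shifts was not tested.

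The labels do not say that replicate numbers pair the libraries, and the deviations of same-numbered libraries correlated at 0.0973 over the genes tested. With the replicate block, limma called 1002 genes higher and 965 lower, and 3 feedback genes, since SPRY2 did not pass (adjusted p = 0.0597). SPRY2 also missed with no trend (adjusted p = 0.0586) and ranged from 0.00287 to 0.130 over its alternatives with all libraries, and SPRED1 from 8.12e-05 to 0.134. With 2 libraries a group, and under 30 reads per NC library for DUSP6, SPRY4 and ETV5, the size of these 3 changes is known only roughly.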

Other observations

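Some pathway genes passed only in the fit on reads and are named after their values were seen. ETV1, the remaining PEA3 factor, was measured at 1.15 and 1.28 FPKM in NC and at 2.23 and 2.18 FPKM in SKA3-KD. It missed the threshold in limma on log2(FPKM + 1) (0.53, adjusted p = 0.0541) and rose in limma voom on reads (0.86, adjusted p = 0.000108), so ETV1, ETV4 and ETV5 were all higher in that fit. ERF, an ETS repressor that ERK inactivates, stood at 30.8 and 33.1 FPKM in NC and 38.2 and 38.9 FPKM in SKA3-KD (limma voom 0.26, adjusted p = 0.0150). ELK1, an ETS activator that ERK phosphorylates, stood at 26.4 and 26.3 FPKM in NC and 30.1 and 32.1 FPKM in SKA3-KD (limma voom 0.22, adjusted p = 0.0393).

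Of 19 core cascade genes in the fit on reads, 2 were higher, a share of 10.5% beside 12.1% of all genes. NRAS, a RAS gene, rose from 32.5 to 41.7 FPKM (limma voom 0.34, adjusted p = 0.00188), and RASA2, which inactivates RAS, from 4.28 to 5.72 FPKM (0.40, adjusted p = 0.0102). The receptors ERBB2 (6.24 to 7.71 FPKM, limma voom 0.30, adjusted p = 0.0130) and IGF1R (18.2 to 21.5 FPKM, 0.22, adjusted p = 0.0184) rose as well. So did the ERK output genes IER3 (26.7 to 35.3 FPKM, limma voom 0.43, adjusted p = 0.00903) and PLAUR (9.36 to 11.8 FPKM, 0.32, adjusted p = 0.0162).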
